A study of Homo sapiens with 9 samples.

Results

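The effect of foretinib on the abundant transcripts of a lung cancer cell line was followed 4 h after the drug was added. NCI-H1155 is an established human line from a neuroendocrine large-cell lung cancer. Cells were plated, and 24 h later received 1 µM foretinib, 1 µM cabozantinib or the solvent DMSO alone for 4 h, with 3 RNA-seq libraries in each of the 3 groups. The comparison described here sets the 3 foretinib libraries (replicates 1, 2 and 4) against the 3 DMSO libraries (replicates 2, 4 and 5), and the cabozantinib libraries serve only to estimate the spread between libraries. All 9 libraries come from the same line in the same growth medium, and the labels name no genotype or other agent. The genes described are those with a mean normalised read count of 1000 or more over the 6 libraries compared. They number 5491 of the 23369 genes in the deposited table and of the 12642 that passed the filter on low values (10 or more in at least 3 of the 9 libraries), and all 5491 passed it. Values are read counts scaled for library depth but not divided by gene length. A level thus says how many reads a gene drew and does not rank expression between genes. Throughout, the 3 values of a group are given in the order of those replicate numbers.

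Foretinib and cabozantinib are small molecules that block the ATP site of several receptor tyrosine kinases, among them MET, AXL and the VEGF receptors. Such receptors feed the RAS, RAF, MEK and ERK kinase cascade, and active ERK phosphorylates the partners of the serum response factor SRF, which binds CArG boxes in the promoters of immediate early genes such as EGR1. HES1 is a repressor gene switched on by Notch receptors: the cleaved receptor joins the DNA-binding protein RBPJ at its target promoters. RNA measured after a few hours of treatment reflects both new transcription and the decay of transcripts made earlier.

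The promoters of both of these reference genes are shown because each carries the motif of the factor named above. They are the 150 bases just before the RefSeq transcription start in the build GRCh38.p14, which is not the build of the deposited table (hs37d5), both on the plus strand, at chr5:138465329-138465478 for EGR1 and chr3:194135998-194136147 for HES1. Capitals mark CArG boxes in EGR1 and the letters GTGGGAA, a form of the RBPJ site, in HES1.
EGR1: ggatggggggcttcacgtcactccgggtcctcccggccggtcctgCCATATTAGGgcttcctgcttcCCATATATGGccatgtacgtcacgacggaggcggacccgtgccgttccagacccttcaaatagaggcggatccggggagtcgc
HES1: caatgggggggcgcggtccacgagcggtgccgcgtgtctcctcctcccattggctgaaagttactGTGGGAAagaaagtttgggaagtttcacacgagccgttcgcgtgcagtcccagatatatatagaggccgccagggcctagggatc
The EGR1 window held 2 CArG boxes and the HES1 window 1 GTGGGAA. EGR1, a zinc finger transcription factor, stood at 4430, 4525 and 4944 in the DMSO libraries and at 1029, 902 and 208 in the foretinib libraries. HES1 stood at 2734, 3497 and 3287 and at 1452, 557 and 2185. Both were lower in every foretinib library than in any DMSO library. JAG1, a Notch ligand, had 924, 1915 and 1121 and 585, 27.8 and 2.09 and, at a mean of 762, lay under the level required here.

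The 6 libraries held between 26996023 and 34062153 reads in genes, and the 5491 genes took 89.6% to 90.8% of the value in each. The foretinib libraries listed more of the 12642 tested genes at 0 (18.5% ± 2.38, SD, n = 3) than the DMSO libraries (7.25% ± 3.14, n = 3), among which replicate 2 had 10.9%. Across the 5491 genes, log2 values correlated at r = 0.454 to 0.522 between foretinib libraries and at 0.824 to 0.888 between DMSO libraries, a description across genes, which are not replicates. The neuroendocrine identity of the line was present in part: of 31 listed markers, 20 reached the level required here. NEUROD1, INSM1, CHGA, SCG2, PCSK1 and ELAVL2, among the highest, each stood at 8976 or more in all 6 libraries. SYT1, DDC, SCG5, ELAVL4, ISL1, BEX4, PCSK2, DLL3 and RTN1 lay under the level, at means from 7.18 (PCSK2) to 751 (RTN1). STMN2 and GRP were at 0 in all 6 libraries. Of the marker genes of other cell types, 5 of 5 for red cells, 5 of 6 for endothelium, 5 of 8 for leukocytes and 5 of 8 for fibroblasts were at 0 in all 6 libraries, among them HBB, VWF, PTPRC and COL3A1. The fibroblast list summed to between 453 and 1345 in DMSO and 868.9 and 1194 in foretinib, where COL1A2 was present in every library. In DMSO and foretinib respectively, the leukocyte list summed to at most 227.9 and 754.9, the endothelial list to at most 87.39 and 0, and the lung alveolar list to at most 447 and 1040. The part of these genes in the results was not tested. The labels call the libraries biological triplicates and do not explain the word combined in their names, so the p-values measure the spread between these libraries only. In such bulk RNA, fewer cells of a type and less RNA per cell cannot be told apart.

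No gene passed the test at an adjusted p below 0.05. In limma's moderated test on log2(value + 1), with Benjamini-Hochberg adjustment over the 12642 genes, the number called was 0 (0%) in each direction, and the smallest adjusted p was 0.358. At an unadjusted p below 0.05, 226 of the 5491 genes were higher in foretinib (4.12%) and 189 were lower (3.44%), against 2.17% and 6.9% of all tested genes. The same 2 counts were 159 and 302 under quantile normalisation and 192 and 219 under TMM scaling. They were 149 and 85 with only the 6 compared libraries and 78 and 157 with limma array weights. Which direction held more genes thus depended on the setting. DESeq2 on the reads recovered from the deposited values called 58 genes higher (1.06%) and 32 lower (0.583%) of the 5488 at this level to which it gave an adjusted p. The same shares of all genes it tested were 0.969% and 4.41%, and edgeR on the same reads called 0. Higher and lower therefore describe where the libraries lay and carry no adjusted significance in limma. DESeq2 called 40 of the 96 genes named by rule, 28 of them among the 30 named by level class. The rule chose nearly all of these genes by small limma p on the same values, so a high share called was built in.

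A direct reading of the libraries was whether the groups overlapped. In 340 of the 5491 genes (6.19%) all 3 foretinib values lay above all 3 DMSO values, and in 253 (4.61%) all lay below. With 3 values a group, complete separation also arises in a share of genes that do not differ. If the 6 libraries were interchangeable, the possible orderings alone would give a share of similar size in each direction. Separation by itself therefore does not mark a gene as changed. How many of these genes that share covers was not tested. The shares over all tested genes were 3.99% and 7.69%. The balance of directions among the 5491 genes depended on the scaling: under quantile normalisation 247 were higher (4.5%) and 359 lower (6.54%), and under TMM scaling 299 were higher (5.45%) and 284 lower (5.17%). The ratio of the group means in the 340 higher genes had a median of 1.71 (range 1.09 to 8.55), and in the 253 lower genes the ratio of DMSO to foretinib had a median of 1.68 (1.11 to 6.50). A ratio of at least 2 together with the absence of overlap was seen in 103 higher and 82 lower of the 5491 genes. Over all 12642 tested genes the same counts were 250 and 774. Of the 103 and 82 genes, 99 and 76 had a mean of 1000 to 3000. The median log2 fold change, foretinib against DMSO, was -0.02 over the 5491 genes and -0.34 over all tested genes. On recovered reads the median over all tested genes was -0.03 with edgeR and 0.00 with DESeq2, and under quantile scaling it was -0.24, a shift of over 0.1 from the log2 fit.

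**Figure D1:**
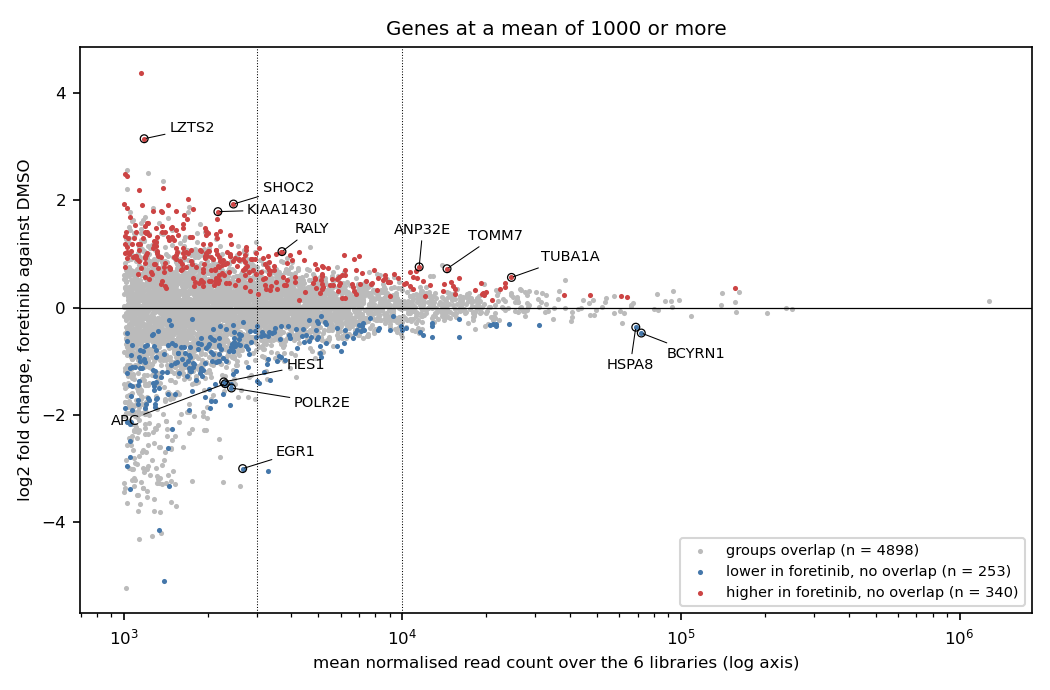
Each point is 1 of the 5491 genes, with its mean normalised read count over the 6 libraries on the x axis (log axis) and its limma log2 fold change, foretinib against DMSO, on the y axis. Points narrow toward 0 as the level grows past the dotted lines at 3000 and 10000, and the 593 genes without overlap between the groups (340 red, 253 blue) lie mostly at the edges of the cloud.

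The precision of the comparison followed the level. Among the 3461 genes with a mean of 1000 to 3000 the median 95% interval was ±1.13 on the log2 scale. It was ±0.64 among the 1658 genes of 3000 to 10000 and ±0.39 among the 372 genes above 10000. The whole interval lay within a 2-fold change in either direction for 286 of the first class (8.26%), 1053 of the second (63.5%) and 361 of the third (97.0%). For those genes the per-gene interval held no difference of 2-fold or more. The intervals are not adjusted for the number of genes and depend on the scaling. They also use a spread shared by the groups, although the foretinib libraries varied more. For most genes between 1000 and 3000 the interval reached beyond 2-fold, so a difference of that size could not be told from none.

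The spread between libraries was wider in the foretinib group. The median coefficient of variation over the 5491 genes was 39.8% between foretinib libraries and 23.2% between DMSO libraries, and it was the larger in foretinib for 4106 genes (74.8%). Both shrank with level, to 16.6% and 12.2% above 10000. The part of this spread, and of the larger share of genes at 0, in the results was not tested.

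**Figure D2:**
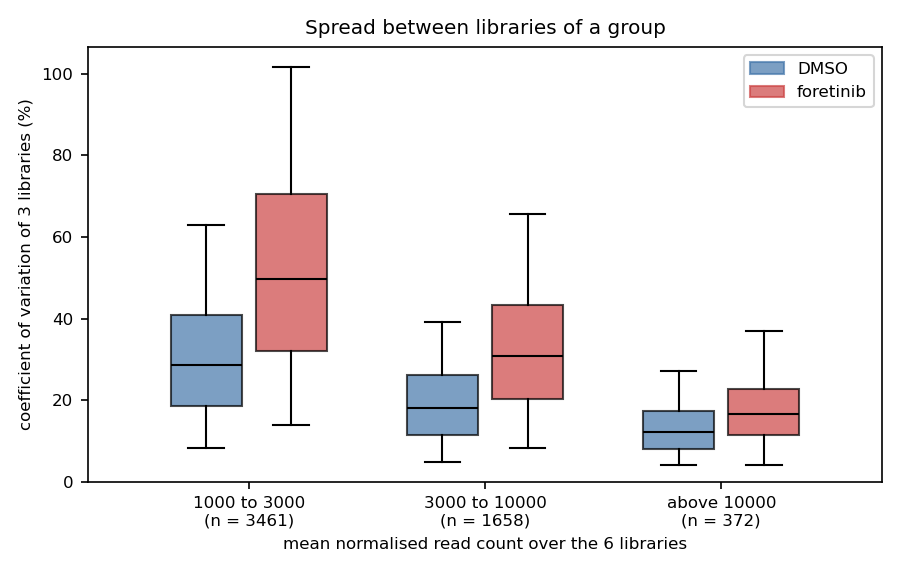
Boxes show the coefficient of variation over the 3 libraries of a group (percent) for genes in 3 classes of mean normalised read count, with the median as a line, the quartiles as the box and the 5th and 95th percentiles as whiskers. The foretinib boxes lie above the DMSO boxes in each class, at medians of 49.7%, 30.7% and 16.6% against 28.5%, 18.1% and 12.2%.

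Between 1000 and 3000, 213 genes were higher without overlap (6.15%) and 170 lower (4.91%), against 169 and 223 under quantile normalisation and 196 and 187 under TMM scaling. SHOC2 encodes a scaffold that, with the phosphatase PP1 and the GTPase MRAS, removes an inhibitory phosphate from RAF kinases. Its values were 1101, 1386 and 678 in DMSO and 3647, 4669 and 3384 in foretinib. The lowest foretinib library thus stood at more than 2 times the highest DMSO library (a ratio of 2.44). The log2 fold change was 1.93 (SE 0.39, 95% interval 1.09 to 2.78), and limma's adjusted p was 0.358. DESeq2 called this gene with an adjusted p of 1.47e-05. KIAA1430, now named CFAP97 for its link to cilia and flagella, had 693, 1163 and 1133 in DMSO against 3389, 3215 and 3478 in foretinib. The foretinib libraries of this gene lay close together, and the log2 fold change was 1.79 (0.93 to 2.65).

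LZTS2, a leucine zipper protein that binds the microtubule-severing enzyme katanin, was low in DMSO at 378, 129 and 238 and stood at 2110, 2931 and 1321 in foretinib. It reached a mean of 1000 only through the foretinib libraries, as its DMSO mean was 248, and such a gene had to differ. Of the 340 higher genes 93 had a DMSO mean under 1000, and of the 253 lower genes 70 had a foretinib mean under 1000. Those 70 include PAIP1, SPRED2, NUCB1, KIF13A, NDUFA9 and WDR12 below, at foretinib means of 918, 709, 715, 498, 982 and 807. The 93 include PIK3CA and AIMP2, at DMSO means of 857 and 612. Not every such gene is marked where it is described. The ratio of means of LZTS2 was 8.55, with a wide interval of the log2 fold change (1.41 to 4.88 around 3.15). C15orf42 is now TICRR, which is needed for the firing of replication origins, and it had 892, 322 and 811 against 2121, 4326 and 1722. USP32, a ubiquitin protease, had 601, 677 and 1090 against 1883, 2294 and 2368. Both were separated in all libraries, at log2 fold changes of 2.03 and 1.51, and their DMSO means of 675 and 789 were also under 1000.

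Among the lower genes of this class after EGR1 came APC, the scaffold of the complex that marks β-catenin for destruction. It stood at 3030, 4381 and 2738 in DMSO and 1211, 1357 and 1162 in foretinib. The foretinib libraries lay close together, the lowest DMSO library exceeded the highest of them by a ratio of 2.02, and the log2 fold change was -1.42 (SE 0.37, -2.20 to -0.63). POLR2E encodes a subunit shared by RNA polymerases I, II and III and had 4125, 3287 and 3292 against 1393, 1666 and 855, a log2 fold change of -1.50 (-2.34 to -0.66). PAIP1, which binds the poly(A)-binding protein and eIF4A in translation, had 3548, 3694 and 1703 against 1283, 759 and 712. PDZD8, a lipid transfer protein at contacts of the endoplasmic reticulum with other organelles, had 1854, 3881 and 3661 against 1031, 1005 and 1334. The DMSO libraries of PAIP1 and PDZD8 were themselves uneven, with 1 library of each well under the other two.

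Between 3000 and 10000, 91 genes were higher without overlap (5.49%) and 67 lower (4.04%), against 51 and 110 under quantile normalisation and 74 and 81 under TMM scaling. ATF7IP, a cofactor of the histone methyltransferase SETDB1, had 5084, 4912 and 4018 in DMSO and 8480, 11850 and 7519 in foretinib. RALY, an RNA-binding protein of the hnRNP family, showed tight groups, at 2451, 2423 and 2359 and 4864, 5416 and 4679. Its log2 fold change was 1.05 (SE 0.27, 0.46 to 1.63), and the gap between the groups was a ratio of 1.91. RAB22A, a GTPase of early endosomes, had 2576, 2640 and 3100 against 4517, 6487 and 6122. MGRN1 and MID1 both encode RING-type ubiquitin ligases, of which MID1 binds microtubules. MGRN1 had 3172, 2517 and 2323 against 5665, 5486 and 4521, and MID1 had 6469, 3820 and 3956 against 8384, 7703 and 9938. All 5 genes had log2 fold changes between 0.90 and 1.05.

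The 5 lower genes named in this class included parts of the RNA and DNA machinery. LSM3, a subunit of the ring that binds U6 RNA and of the ring that starts mRNA decay, had 4772, 3113 and 5460 in DMSO and 1927, 2015 and 2323 in foretinib. POLD2, a subunit of DNA polymerase delta, had 5124, 4068 and 3892 against 2113, 1102 and 2871. RSL1D1, a nucleolar protein, had 3727, 5226 and 4083 against 1219, 2933 and 1186. In RSL1D1 the replicate 2 library lay well above the other two foretinib libraries and still below all of DMSO. PRPS2, which makes the ribose donor for nucleotide synthesis, had 4864, 4927 and 4287 against 1917, 2941 and 2325. KLHL15, a substrate adaptor of the CUL3 ubiquitin ligase, had 7439, 5961 and 6605 against 3891, 2870 and 3908, and the log2 fold changes of the 5 genes ran from -1.41 to -0.92.

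Above 10000, where sampling noise was least, 36 of 372 genes were higher without overlap (9.68%) and 16 lower (4.3%), and the median log2 fold change was 0.05. Under quantile normalisation 27 were higher and 26 lower in this class, and under TMM scaling 29 and 16. ANP32E, the chaperone that removes the histone variant H2A.Z from chromatin, had tight groups. Its values were 8895, 8527 and 8173 in DMSO, a mean of 8532 ± 361 (SD, n = 3), and 13841, 15277 and 14243 in foretinib, a mean of 14453 ± 741. The groups were separated by a ratio of 1.56, the log2 fold change was 0.76 (SE 0.16, 0.41 to 1.11), and limma's adjusted p was 0.358. DESeq2 called ANP32E with an adjusted p of 3.01e-05. TOMM7, a small subunit of the channel that imports proteins into mitochondria, had 11542, 12133 and 9113 against 17762, 20073 and 16202. Every foretinib library of TOMM7 was again above every DMSO library (log2 fold change 0.73, 0.34 to 1.12).

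TUBA1A, an alpha tubulin of neurons, had 20068, 21067 and 18216 against 26849, 35671 and 26000, and reads of near-identical tubulin genes may be split among them. TPR, which forms the filaments of the nuclear pore basket, had 7692, 7789 and 9187 against 12995, 15151 and 11153. CBX3, the heterochromatin protein HP1 gamma, had 7061, 8157 and 10658 against 15833, 13215 and 12072. These 3 genes were higher by log2 fold changes of 0.56, 0.67 and 0.68.

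Lower genes above 10000 included 2 RNAs that code for no protein. BCYRN1, a small cytoplasmic RNA that shares sequence with Alu repeats and is therefore uncertain in count, had 97739, 76357 and 77810 against 62587, 58878 and 59067. TUG1, a long non-coding RNA, had 14086, 13898 and 17551 against 9267, 10791 and 11205. Both were lower in all 3 foretinib libraries, at log2 fold changes of -0.47 and -0.54. EIF5, which triggers GTP hydrolysis by eIF2 during start codon choice, had 21399, 18504 and 16694 against 10093, 13664 and 15115. RPS12, a protein of the small ribosomal subunit, had 11569, 15316 and 14964 against 10914, 8657 and 9911, and DHX9, an RNA helicase, had 13199, 13776 and 13193 against 11056, 10130 and 8214. For all 30 genes named by class the limma adjusted p lay between 0.358 and 0.457. None reversed its direction under any of the 17 alternative settings. In genes chosen without overlap, leaving out a library or changing the pseudocount, filter or array weights could not reverse it, so those settings give no support. DESeq2 called all of the 30 but EIF5 and DHX9. The 30 were chosen by separation and small limma p in the same libraries, so these calls give no independent support.

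**Figure D3:**
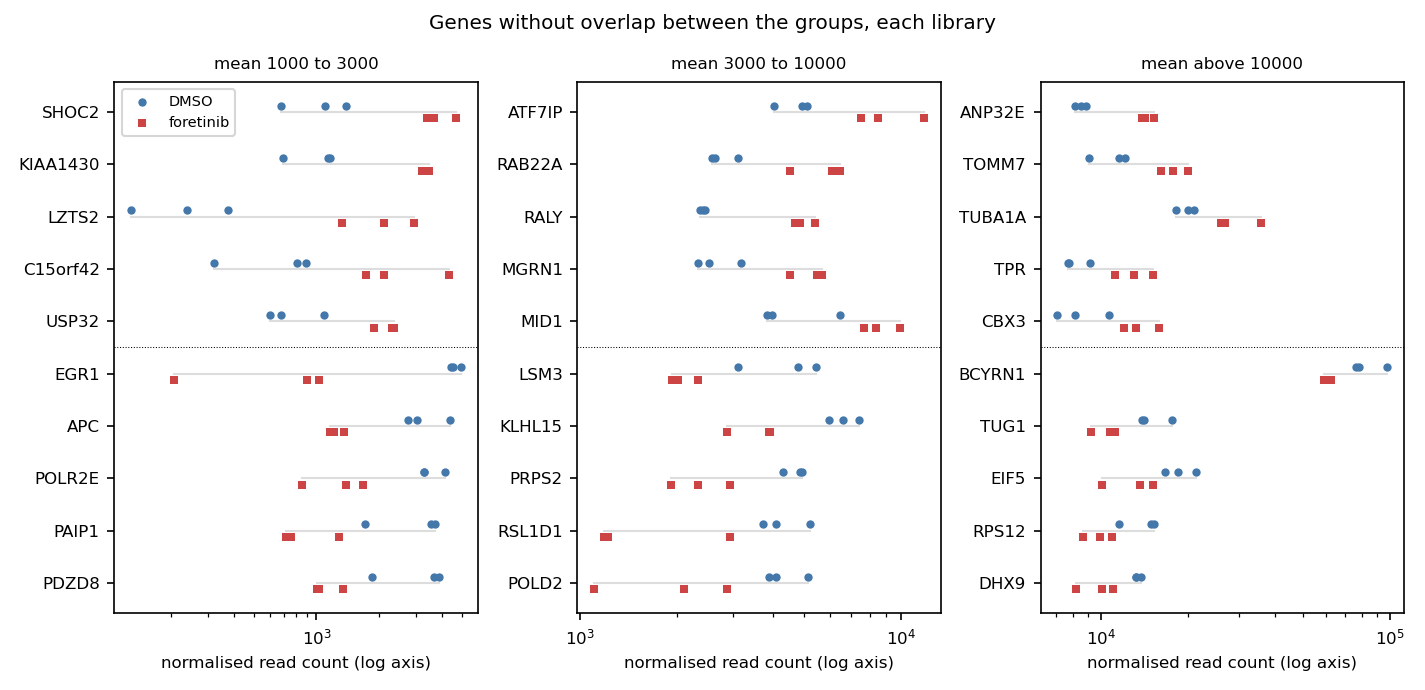
Normalised read count (log axis) of 30 genes in each of the 6 libraries: DMSO as blue circles, foretinib as red squares, with 1 panel per level class and the 5 higher genes above the dotted line and the 5 lower genes under it. The groups are separated in all 30 genes because the rule of choice required it, and the distance is wide for LZTS2 and EGR1 and narrow for TUBA1A and BCYRN1.

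The widest gaps between the groups were found at means of 1000 to 3000. The ratio of the nearer edges was 4.30 for EGR1, 3.50 for LZTS2, 2.76 for KIAA1430 and 2.44 for SHOC2. PMS2, a mismatch repair protein whose reads may be shared with its near-identical copy, followed at 2.37 with 694, 284 and 549 in DMSO and 1749, 2030 and 1647 in foretinib. PAPOLG, a poly(A) polymerase, had 279, 951 and 766 against 2174, 2268 and 2240. GLTSCR2, now NOP53, a nucleolar protein, had 467, 819 and 1093 against 2324, 3012 and 2148. MYBL1, a transcription factor of the MYB family, had 1011, 1235 and 1337 against 3615, 2495 and 3576. Of the genes named in this paragraph, only SHOC2 and MYBL1 had both group means above 1000. The others reached that level only through the group where they were high. A gap of at least 1.5 was found in 34 of the 340 higher and 17 of the 253 lower genes. The same count over all tested genes was not made. Over all tested genes, those without overlap leaned the other way, at 3.99% higher and 7.69% lower.

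Some of the most abundant transcripts had narrow intervals. MALAT1, a nuclear long non-coding RNA, had 285620, 225740 and 240960 in DMSO and 209010, 260890 and 275390 in foretinib, and its 95% interval of the log2 fold change was -0.33 to 0.29. RMRP, the RNA of RNase MRP, had an interval of -0.26 to 0.24. PTMA, a small acidic nuclear protein, had an interval of -0.34 to 0.16, and TMSB4X, which binds actin monomers, one of -0.32 to 0.16. In these 4 genes the groups overlapped, while among other genes of such high level HIST2H2BF was higher and BCYRN1 lower without overlap.

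Genes were then read by function, in 36 lists, and each count stands against the 6.19% higher and 4.61% lower without overlap among all 5491 genes. The lists are small, so 1 gene moves a share by several percent. No gene of any list passed limma's adjusted threshold. The sign of a list's median was fragile: in 28 of the 36 lists it changed under at least 1 alternative, so no direction is read from a median alone.

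Of the 5 genes at this level for kinases reported as targets of such inhibitors, PTK2 alone was higher without overlap (median log2 fold change -0.16, and 0.31 with DESeq2). Of 13 members of the RAS, RAF, MEK and ERK cascade none was separated in either direction, and their median log2 fold change was -0.21 (0.02 without foretinib replicate 2). Of 16 members of the PI3K, AKT and mTOR pathway (median -0.22, and 0.16 without foretinib replicate 2), PIK3CA and SESN3 were higher without overlap and none was lower. PIK3CA, the catalytic subunit of PI3-kinase, had 1128, 1100 and 343 against 1922, 3830 and 1472. TSC2, which restrains mTOR, had 1571, 1732 and 1843 against 1816, 4499 and 4960, and its lowest foretinib library fell within the DMSO range.

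The next 2 lists hold genes that ERK activity is known to induce. Of 11 members in the list of ERK feedback and ERK-dependent genes (median -0.30), SPRED2, an inhibitor of RAS signalling, was lower without overlap, at 2067, 1998 and 1436 against 884, 451 and 790. ETV5, a transcription factor induced by ERK, was uneven in foretinib, with 3375, 6.72 and 685 against 1546, 1539 and 1692 in DMSO. DUSP5, a phosphatase of nuclear ERK, had 1200, 1271 and 1450 against 1060, 1995 and 16.7. Of 6 immediate early genes (median -0.56, and 0.14 with DESeq2), EGR1 alone was separated. JUNB, an AP-1 subunit, had 2915, 931 and 1215 against 1090, 458 and 405, and 1 foretinib library exceeded the lowest DMSO library. KLF6, a zinc finger factor, had 942, 1595 and 1489 against 19.7, 1706 and 2068.

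Of 9 Notch pathway members (median -0.06, and 0.13 without DMSO replicate 4), HES1 was lower without overlap and none was higher. RBPJ, the DNA-binding partner of the cleaved receptor, had 3883, 3387 and 2365 against 2973, 1423 and 1315, with overlap from foretinib replicate 1. JAG2, a ligand, had 3417, 1693 and 741 against 482, 1611 and 6.27. NOTCH2 itself had 1024, 1099 and 1135 against 1608, 483 and 2646, and ADAM10, which makes the first cut in the receptor after ligand binding, 3179, 3455 and 1498 against 5733, 2451 and 2478. In NOTCH2 and ADAM10 the groups overlapped.

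Cell cycle genes were mixed. Of 37 mitosis genes (median 0.06), 3 were higher without overlap and 1 lower. KIF11, the motor that separates spindle poles, had 10082, 7435 and 9055 against 11351, 14579 and 13235. KIF4A, a motor of chromosomes and the central spindle, had 4809, 4984 and 4497 against 6534, 6770 and 7271, and INCENP, the scaffold of Aurora B, had 5976, 7570 and 7010 against 9346, 11142 and 10758. PLK1, a kinase of mitotic entry, was lower, at 3397, 3381 and 2601 against 2130, 2002 and 2101. Of 35 DNA replication genes (median 0.05), MCM5, a helicase subunit, and RFC4, a clamp loader subunit, were higher and POLA1, the catalytic subunit of DNA polymerase alpha, was lower without overlap. POLA1 had 6171, 5056 and 3725 against 3701, 1921 and 2130, so that its highest foretinib library almost reached its lowest DMSO library. Of 7 G1 cyclins and CDK inhibitors (median -0.04), CDKN2C was higher without overlap. Of 19 cohesin and condensin genes (median -0.04), NCAPH, a condensin subunit, was lower, at 8117, 6273 and 8389 against 5287, 4838 and 4275.

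The list of DNA damage response and repair held 31 members, with 4 higher and 4 lower without overlap (median 0.05). PMS2, TOP2B, TIMELESS and TOPBP1 were higher. TOP2B, a topoisomerase that cuts both strands, had 6979, 6031 and 8948 against 9659, 9867 and 14636, and TIMELESS, a fork protection protein, had 4979, 5176 and 4894 against 7304, 5667 and 7814. MSH3, PALB2, ERCC3 and FANCI were lower. MSH3, a mismatch recognition protein, had 1706, 2188 and 1988 against 909, 573 and 1191. ERCC3, a helicase of the transcription factor TFIIH, had 1803, 2236 and 2047 against 947, 1142 and 1665. PALB2, the partner of BRCA2, had 1471, 1562 and 1384 against 1048, 1173 and 254, with 1 foretinib library far under the others. Of 8 p53 targets (median 0.22), MDM4, an inhibitor of p53, was higher without overlap at 1030, 1258 and 1441 against 1758, 2398 and 2158.

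Of 45 chromatin remodelling and histone modifying enzymes (median 0.04), CHD4, SMARCA5, KAT6B and SUZ12 were higher and CHD3 and NCOR1 lower without overlap. CHD4 and CHD3 are alternative helicases of the NuRD complex and lay on opposite sides. CHD4 had 8864, 9399 and 10634 against 11733, 12839 and 12180, and CHD3 had 1386, 994 and 1356 against 830, 790 and 797. SMARCA5, the motor of ISWI complexes, had 2726, 4264 and 5434 against 6377, 5776 and 6268. Of 23 genes for RNA polymerase II, elongation and Mediator (median -0.01), POLR2E was the single one separated. Of 5 members of the MYC family and its partners (median -0.03) none was separated, and MYCN, highly expressed in some neuroendocrine tumours, had 2797, 2433 and 1965 against 2690, 4428 and 2803.

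Of 16 replication-dependent histone genes, 2 were higher without overlap, HIST1H4C and HIST2H2AC, and none was lower. Their median log2 fold change was 0.29, and the summed level was 501512 ± 74539 in DMSO and 616005 ± 119059 in foretinib (SD, n = 3). The median was -0.0049 in the fit with replicate number as a block. These near-identical genes mostly lack poly(A) tails, and their reads may be assigned unevenly. HIST2H2BF, which is not in that list and is among the 10 most abundant genes, was also higher without overlap, at 132740, 149150 and 127750 against 193600, 161380 and 173390.

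RNA-processing genes lay on both sides. Of 49 SR proteins, hnRNPs and core splicing factors (median 0.01), U2AF2, SF3B3, PRPF8 and HNRNPR were higher without overlap and SRSF6 lower. U2AF2, which binds the polypyrimidine tract before the 3′ splice site, had 8045, 7340 and 5782 against 11126, 9234 and 10558. SRSF6, a splicing regulator of the SR family, had 13081, 9736 and 11263 against 8826, 7061 and 9695. Of 31 RNA helicases (median -0.16), DDX24 and DDX46 were higher and DDX18, DDX54 and DHX9 lower. DDX24, a DEAD-box helicase, had 5670, 4519 and 3938 against 7158, 9343 and 6617, and DDX18, a nucleolar helicase, had 3045, 2825 and 3440 against 1912, 1184 and 2453. Of 35 genes of nuclear pores and transport (median -0.03), TPR and NUP88 were higher and TNPO3, XPO1 and RAN lower. XPO1, the main exporter of proteins with a leucine-rich signal, had 11380, 12172 and 11338 against 10452, 7632 and 8862.

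Ribosome biogenesis was the list with the largest share of lower genes among the 36. Of its 27 members, 6 were lower without overlap (22.2%, against 4.61% of all 5491 genes) and 1 was higher. NOP2, a methyltransferase of the large subunit rRNA, had 2869, 3493 and 2949 in DMSO and 1693, 2178 and 1818 in foretinib (log2 fold change -0.71, -1.38 to -0.04). WDR12, of the PES1 and BOP1 complex, had 1477, 1842 and 2017 against 553, 1088 and 781 (-1.18, -2.23 to -0.13). Its foretinib mean was 807, so WDR12 reached a mean of 1000 only through the DMSO libraries. POLR1B, the second largest subunit of RNA polymerase I, had 1327, 1745 and 2697 against 1015, 1278 and 1140. MYBBP1A, a nucleolar regulator, had 3692, 2480 and 1815 against 1249, 1732 and 1376. RRS1, which helps to place the 5S particle, had 6671, 4802 and 4084 against 3597, 3374 and 3563, and NOP56, a core protein of box C/D particles, had 8293, 8416 and 7839 against 6839, 7320 and 7222.

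The other members were mixed. GNL3, a nucleolar GTPase, was higher at 8532, 6767 and 6996 against 10801, 9528 and 10834. FBL, the methyltransferase of box C/D particles, had 2459, 1426 and 1491 against 1852, 3565 and 3542. NPM1 and NCL, abundant nucleolar chaperones, overlapped, at intervals of -0.14 to 0.48 and -0.22 to 0.48. The median log2 fold change of the 27 was -0.14, and the summed level did not point down, at 223599 ± 27119 in DMSO and 232021 ± 9598 in foretinib. NCL alone held means of 88325 and 96270 of these sums. They thus weigh abundant members most and do not speak for the other genes of the list. The median was -0.0042 without DMSO replicate 2. The number lower without overlap was 6 (22.2%) under quantile and TMM scaling, where the shares of all 5491 genes were 6.54% and 5.17%. When single libraries were left out it was 6 to 9, while the share of all 5491 genes, larger with fewer libraries by construction, was 6.96% to 11.4%. Whether the list differs from other lists of its size was not tested.

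**Figure D4:**
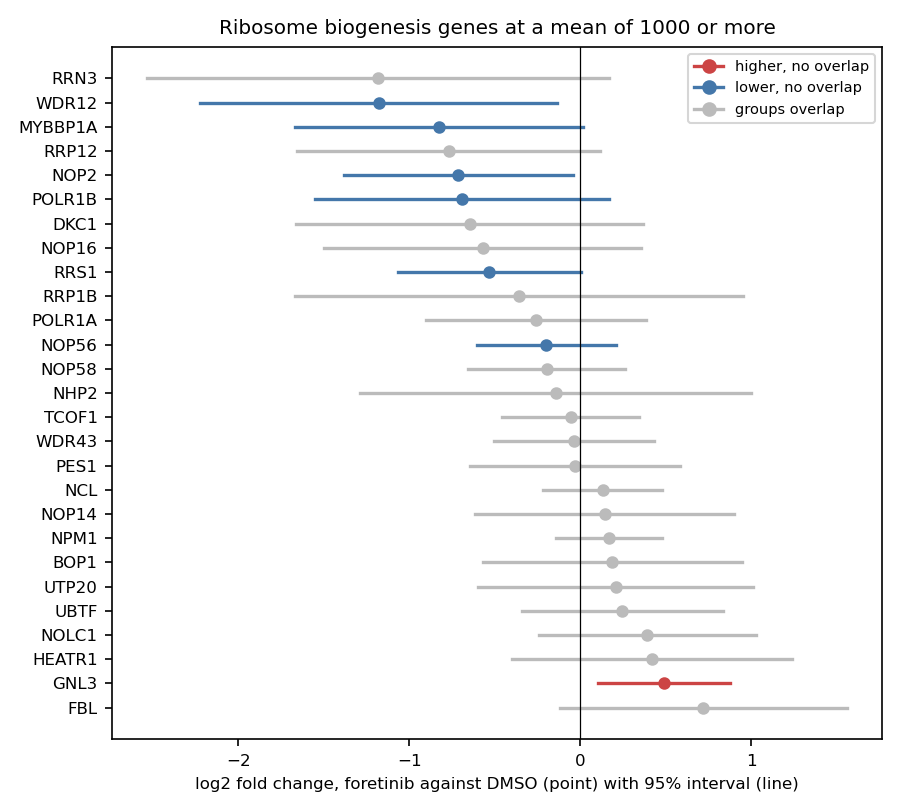
limma log2 fold change, foretinib against DMSO (points), with 95% intervals (lines) for the 27 ribosome biogenesis genes at a mean of 1000 or more. The 6 genes without overlap that were lower (blue) lie between -1.18 and -0.20, GNL3 (red) at 0.49, and most intervals cross 0.

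Of 49 ribosomal protein genes, 5 were higher without overlap (RPL7A, RPL8, RPL11, RPL35 and RPS6) and 2 lower (RPL27A and RPS12), and 36 of 49 had a log2 fold change above 0 (73.5%, median 0.15). That share was 48.6% over the 5491 genes and 59.7% above 10000, where 41 of the 49 stood. Under quantile normalisation 3 of the 49 were higher and 3 lower without overlap. RPS15, of the small subunit, had 38579, 30324 and 26125 against 47729, 50180 and 37081, with overlap at DMSO replicate 2. RPL7A, of the large subunit, had 19252, 17778 and 16763 against 24262, 21629 and 20087. Ribosomal protein genes have many processed pseudogenes, which can take a part of their reads. Of 38 translation initiation and elongation factors (median -0.02), EIF1AX was higher and EIF5 and EIF3I lower. Of 22 aminoacyl-tRNA synthetase genes (median -0.05), EPRS, MARS and AIMP2 were higher and none lower. AIMP2, a scaffold of the multi-synthetase complex, had 665, 630 and 541 against 1262, 1611 and 1346, and EPRS, which charges both glutamate and proline tRNAs, had 6108, 5934 and 7855 against 10278, 10620 and 8231.

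Of 32 proteasome subunits (median 0.05), PSMC1 and PSMD1 were higher without overlap and none was lower. Of 38 genes of the ubiquitin system (median -0.01), NEDD4L and ITCH were higher and RBX1 lower. RBX1, the RING subunit of cullin ligases, had 1821, 2601 and 2517 against 1801, 1437 and 517. Of 28 cytosolic chaperones (median -0.06), PTGES3, the p23 co-chaperone of HSP90, was higher at 1905, 2448 and 2706 against 3902, 4897 and 5245. HSPA8, the constitutive HSP70, was lower at 70570, 71755 and 90658 against 61003, 55341 and 63873. Of 24 genes of ER chaperones and secretory entry (median -0.04), SRP72 was lower and none higher, and none of the 16 genes of the ATF4 response and serine synthesis was separated (median 0.21).

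Among cytoskeletal genes, 3 of 23 tubulins and microtubule proteins were higher without overlap, TUBA1A, TUBB and DPYSL3, and none was lower (median 0.11). TUBB, a beta tubulin, had 63738, 62137 and 52886 against 71743, 69604 and 64333, a narrow separation. Of 32 actin cytoskeleton genes (median 0.08), SPTBN1 and TPM4 were higher and TPM3 lower. SPTBN1, a spectrin, had 21697, 19871 and 18938 against 28686, 23070 and 28059. Of 24 microtubule motors and dynein genes (median -0.01), KIF13A was lower at 1382, 2024 and 1439 against 6.58, 1028 and 461, with 1 foretinib library almost empty. Of 39 genes of vesicle coats and membrane traffic (median -0.11, and 0.01 without foretinib replicate 1), GBF1, AP2M1 and AP3B1 were higher and ARF3 lower. GBF1, the exchange factor that activates ARF1 at the Golgi, had 3878, 3785 and 3537 against 5788, 6242 and 6352, both groups tight.

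Of 34 nuclear-encoded respiratory chain genes (median 0.00), NDUFS8, NDUFV2, COX5B and ATP5B were higher and NDUFA9 lower. ATP5B, the catalytic beta subunit of ATP synthase, had 8628, 9295 and 9547 against 13056, 15417 and 11941. NDUFV2, a complex I subunit, had 2162, 2052 and 1825 against 4275, 3712 and 2306. Of 26 cholesterol and fatty acid synthesis genes (median 0.03), SCD and SREBF2 were higher. SCD, which makes monounsaturated fatty acids, had 13291, 14209 and 11334 against 21613, 19155 and 16068. None of 18 glycolysis and hypoxia genes was separated (median 0.09), and PGK1, a glycolytic kinase, had 10664, 15522 and 12021 against 13532, 8943 and 7415.

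Of 20 neuroendocrine markers at this level (median 0.07), NEUROD1 was higher and BEX1 lower without overlap. NEUROD1, a neuronal transcription factor, had 13907, 13249 and 13806 in DMSO and 16387, 18814 and 16951 in foretinib (log2 fold change 0.35, 0.04 to 0.65). BEX1, a small adaptor protein of neurons, had 26931, 28360 and 24680 against 19440, 24675 and 20842, where the highest foretinib library and the lowest DMSO library almost touched. The summed level of the 20 was 182108 ± 8502 in DMSO and 185261 ± 8081 in foretinib. Of the epithelial markers only KRT8 and KRT18 reached this level, and both overlapped.

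**Figure D5:**
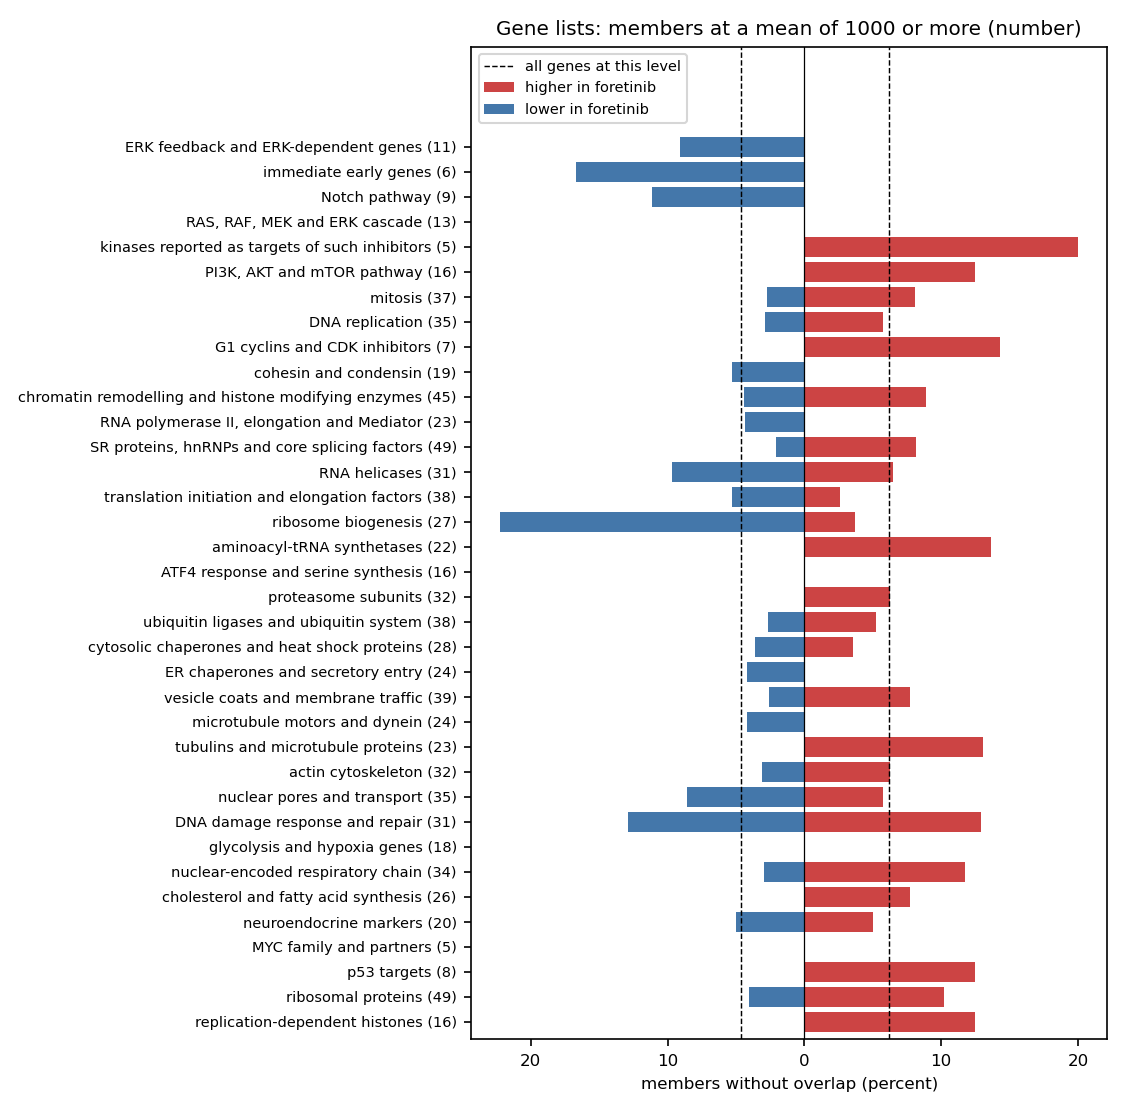
Percent of the members of each list whose groups did not overlap, higher in foretinib to the right (red) and lower to the left (blue), with the number of members in brackets and dashed lines at the shares over all 5491 genes, 6.19% and 4.61%. The ribosome biogenesis bar reaches 22.2% on the lower side from 6 genes, and in the shortest lists a single gene makes the bar.

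The promoters of the separated genes were searched on both strands, 250 bases before to 50 after the RefSeq start, for the CArG box, the CRE (TGACGTCA), the RBPJ site form GTGGGAA and the E-box CACGTG. A window was found for 4523 of the 5491 genes (82.4%). The CArG box was in 1.81% of the matched higher genes, 2.4% of the lower genes, 1.64% of all matched genes at this level and 1.6% of the 27305 genes in the table. GTGGGAA was in 7.94%, 7.69%, 7.52% and 7.62%. The CRE was in 2.89%, 2.4%, 4.09% and 2.25%, and the E-box in 11.2%, 16.8%, 13.9% and 8.77%. EGR1 was 1 of 5 lower genes with a CArG box. A match describes the letters in this window and is not evidence of binding.

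DESeq2 called 90 of the 5491 genes, of which 82 were without overlap and 52 had a mean of 1000 to 3000. Of the genes named by list and not by class, DESeq2 called PTGES3, INCENP, ATP5B, PMS2, GBF1, RPS15, DDX24, TOP2B, SPTBN1 and TSC2 higher and POLA1 and NCAPH lower, and RPS15 and TSC2 overlapped. Beside the genes already described, the 90 included NUCB1, a calcium-binding Golgi protein, at 2129, 2092 and 1467 against 815, 652 and 679, and SUMO3, a ubiquitin-like modifier, at 4090, 2227 and 2641 against 912, 1619 and 695. SLC35A4, of a family of nucleotide sugar transporters, was higher at 1203, 1329 and 925 against 1830, 4200 and 3407. These 3 genes were chosen after their values were seen. All 3 were without overlap and not called by limma.

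Zeros touched the lower end of the level range. Of the 5491 genes, 50 were at 0 in 1 foretinib library each, 13 in replicate 1, 10 in replicate 2 and 27 in replicate 4, and 1 gene was at 0 in a DMSO library. LMNA, the gene of the lamins A and C, had 1933, 1794 and 1903 in DMSO and 2183, 0 and 1402 in foretinib, so that the other two foretinib libraries stood near DMSO. IL13RA1, a cytokine receptor chain, had 2414, 2344 and 1886 against 1531, 177 and 0 and counts among the lower genes without overlap. All 50 genes had a mean under 3000.

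The level of 1000 cut through a continuum. SYNJ1, GCLM and IPW lay just inside, at means of 1000.1, 1000.1 and 1000.2, and ZNF134, BLZF1 and ABHD12 just outside, at 999.47, 999.48 and 999.98. Of these 6, BLZF1 was lower without overlap, at 1211, 1324 and 1226 against 677, 1042 and 518, and in the other 5 the groups overlapped. With the minimum set at 500, 448 of 7789 genes were higher without overlap (5.75%) and 394 lower (5.06%). With it at 3000, 127 of 2030 were higher (6.26%) and 83 lower (4.09%).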

How the data were processed

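RNA-seq of 9 NCI-H1155 libraries was analysed from 1 deposited table. The values are a signal that is never negative: reads per gene that the authors divided by a size factor per library, named as normalised counts. In every library 100% of the deposited values were whole multiples of 1 read (tolerance 1e-06), so whole read counts could be recovered and gave the depths. Per the submitters' processing notes, the software included DESeq2, HTSeq, Cufflinks 2.2.1 and TopHat2 2.0.13, with the build hs37d5. What each did, the annotation and any use of strand are not stated there, so antisense and overlapping genes cannot be told apart.

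The filter required 10 in 3 or more libraries and left 12642 genes, which were fitted with limma 3.58.1 (R 4.3.3; trend, two-sided) on log2(value + 1), 1 model over 3 groups, with Benjamini-Hochberg adjustment over all of them. On this scale the pseudocount understates changes at low levels, and a library at or near 0 weighs heavily, so that a fold change can exceed the ratio of means or differ from it in sign, as in UTP18 (log2 fold change -1.99, ratio 1.54). Non-overlap means that all 3 values of one group exceed all 3 of the other. edgeR 4.0.16 (quasi-likelihood) and DESeq2 1.42.0 on recovered reads, pseudocounts of 10 and 100, other filters, quantile and TMM scaling, array weights, a replicate block, the 6 libraries alone, each library left out and level minimums of 500 and 3000 were alternatives.

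Genes were named by a rule: without overlap, the 5 per direction and level class (bounds 3000 and 10000) with the smallest unadjusted p, plus the 2 of smallest p in each of 36 lists, whether or not the groups overlapped, the reference genes EGR1, HES1 and JAG1, and 3 genes on each side of the minimum. Other genes that a short count singled out were named after their values were seen. The genes and lists were chosen with earlier results of these data known, so list counts are descriptions. Promoter windows came from RefSeq (GRCh38.p14), matched by symbol or synonym.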

Additional observations from a re-analysis of the deposited data

How the results depend on the processing

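With 3 libraries a group and the wide spread in foretinib, a missing call is not evidence of equal levels. None of the 96 named genes changed direction under any of the 17 alternatives (JAG1 has no value under the filter at a mean of 1000). For those without overlap, settings other than the scaling, the replicate block, edgeR and DESeq2 could not have changed it. DESeq2 on recovered reads called 117 higher and 533 lower genes of all tested, and 58 and 32 of the 5491, including 40 of the 96 named genes. The named genes were mostly picked by limma p on the same values, so those 40 calls add no independent support. Every other alternative called 0 genes, with adjusted p of the named genes between 0.0527 and 1. The median log2 fold change of the 5491 genes (-0.0169) was -0.1002 under quantile normalisation, -0.0475 under TMM scaling, 0.0398 with edgeR and 0.0696 with DESeq2, so its sign is not fixed; the sign of 28 of the 36 list medians changed under at least 1 alternative. Without single libraries it ran from -0.029 to 0.0222. Counts without overlap grew with fewer libraries by construction, from 340 to between 510 and 802 higher, and from 253 to between 382 and 626 lower. Under quantile normalisation they were 247 and 359, and under TMM scaling 299 and 284. At a mean of 500 or more 448 were higher and 394 lower of 7789 genes, and at 3000 or more 127 and 83 of 2030. The groups share only the replicate numbers 2 and 4, whose deviations correlated at r = -0.0023 and 0.0266 across genes. Such a correlation cannot decide whether the numbers pair the libraries. With a replicate block 0 genes were called and the median was 0.0111. At an unadjusted limma p below 0.05, the block moved the lower genes among the 5491 from 189 to 304 and the higher from 226 to 223.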

Other observations

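Among the 40 genes of 1000 or more with the widest gaps between the groups, several were on none of the lists above. Some of these, such as RAD1, IPO13, ISG20L2 and OTUD4, have functions that the lists cover. The genes given here were singled out after their values were seen. RAD1, a subunit of the checkpoint clamp loaded at DNA damage, stood at 1832, 1335 and 1419 in the DMSO libraries and 626, 370 and 735 in the foretinib libraries. TAF7, a subunit of the general transcription factor TFIID, had 2431, 1140 and 1476 against 663, 30.7 and 600, with 1 foretinib library near 0. SHMT1, the cytosolic serine hydroxymethyltransferase, had 1699, 1861 and 2296 against 643, 1015 and 233. PTPN12, a phosphatase of focal adhesion proteins, had 1860, 1133 and 1788 against 576, 726 and 108. S100A10, the light chain partner of annexin A2, had 1264, 1769 and 2117 against 433, 379 and 787. All 5 were lower without overlap, and none was called by limma at an adjusted p below 0.05. Their foretinib means lay between 431 and 630, so each reached a mean of 1000 only through the DMSO libraries and had to differ.

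On the higher side, RALB, a RAS-like GTPase of the exocyst pathway, had 622, 727 and 851 against 1552, 1620 and 1413. IPO13, a nuclear transport receptor, had 535, 822 and 970 against 2153, 1586 and 2769, and TBL1X, a subunit of the NCoR and SMRT corepressor complexes, had 944, 1411 and 1391 against 2261, 3132 and 3847. ISG20L2, a nucleolar exonuclease that trims rRNA, had 1124, 833 and 729 against 2262, 2097 and 2387, on the opposite side from the lower ribosome biogenesis genes. OTUD4, a deubiquitinase, had 1348, 829 and 988 against 2288, 4074 and 2326. These 5 genes were higher without overlap, with limma adjusted p between 0.425 and 0.531. RALB, IPO13 and ISG20L2 had DMSO means of 733, 776 and 895, so they reached a mean of 1000 only through the foretinib libraries.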
